A study of Homo sapiens with 11 samples.

Results

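The genes described here encode the proteins of the cytosolic ribosome, and their RNA and promoter marks were measured in HK2 cells, an immortalised line of human proximal tubular epithelial cells. Members were chosen by name. A protein-coding gene was taken where the RNA-seq files call it RPL or RPS plus digits, with an optional single letter, or RPLP0, RPLP1, RPLP2 or RPSA. This gave 81 of 19645 protein-coding genes on chromosomes 1 to 22, X and Y, namely 49 of the large and 32 of the small subunit. Read-through genes with a hyphen and the RPS6K kinases were left out.

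The study had 1 condition, unmodified HK2 cells in culture, and no treated or control group. Per the paper's methods, the culture medium held serum, antibiotics and a low share of DMSO. RNA-seq had 2 libraries. ChIP-seq of H3K4me3, a mark of promoters, of H3K27ac, a mark of active promoters and enhancers, and of H3K27me3, a mark of repressed chromatin, had 2 replicates each. The labels do not say whether replicates came from separate cultures, and a single immortalised line stands for the tubule. With no second condition and with genes that are not replicates of each other, no test was possible, and members are described beside all protein-coding genes.

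Each ribosome consists of a large subunit, which joins amino acids, and a small subunit, which reads the mRNA. Cytosolic ribosomal proteins are made in near equal numbers, and their genes are among the most transcribed of dividing cells. Their mRNAs are known to begin with a C followed by a run of pyrimidines, the terminal oligopyrimidine (TOP) start, through which growth signals control their translation. A few members have a relative that is restricted to certain tissues or serves another role, such as RPL3L in muscle and RPL10L in the testis.

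The start of each gene was taken from its leading transcript, the one of highest mean FPKM (fragments per kilobase of transcript, scaled to the depth of the library). The following sequences are GRCh37 reference, 5′ to 3′ on the gene's strand, from 30 bases before that start to 15 bases from it on, so that the transcript begins at position 31. They are shown because, of the motifs searched, the pyrimidine start differed most in share between members and all protein-coding genes. Capitals mark a C followed by at least 4 pyrimidines within 5 bases of the start. The first set holds the 8 members of highest FPKM, and RPS27 and RPL39, whose relatives follow. For RPS27 and RPL10L the start is that of the canonical transcript, since the leading one was missing from the annotation or at 0.
RPL12: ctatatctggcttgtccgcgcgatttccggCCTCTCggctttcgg
RPS18: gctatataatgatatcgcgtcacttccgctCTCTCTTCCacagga
RPS24: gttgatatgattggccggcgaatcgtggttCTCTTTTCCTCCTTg
RPS2: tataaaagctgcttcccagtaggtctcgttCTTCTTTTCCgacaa
RPL35: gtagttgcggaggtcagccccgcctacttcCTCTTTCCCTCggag
RPS12: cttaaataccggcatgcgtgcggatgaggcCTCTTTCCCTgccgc
RPL19: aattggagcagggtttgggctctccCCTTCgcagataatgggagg
RPL11: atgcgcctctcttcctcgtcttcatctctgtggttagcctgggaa
RPS27: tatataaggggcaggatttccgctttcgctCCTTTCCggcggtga
RPL39: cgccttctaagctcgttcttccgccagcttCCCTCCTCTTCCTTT
In GRCh37, the region shown for RPL12 is chr9:130213671-130213715 on the minus strand, that for RPS18 is chr6:33239822-33239866 on the plus strand, and that for RPS24 is chr10:79793591-79793635 on the plus strand. The region of RPS2 is chr16:2014813-2014857 on the minus strand, that of RPL35 is chr9:127624222-127624266 on the minus strand and that of RPS12 is chr6:133135678-133135722 on the plus strand. RPL19 is shown from chr17:37356506-37356550 and RPL11 from chr1:24018202-24018246, both on the plus strand. RPS27 is shown from chr1:153963208-153963252 on the plus strand and RPL39 from chrX:118925579-118925623 on the minus strand. Of the 8 genes of highest FPKM, 7 carry the run within 5 bases of the annotated start. In RPL19 the marked run begins 5 bases before the start and ends before the transcript begins. It is therefore not the first part of that annotated transcript, and unmarked pyrimidines precede it. In the RPL11 window, pyrimidine runs lie further upstream, and its RefSeq window holds a TOP start.

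The second set holds 3 members that are relatives of another member.
RPL39L: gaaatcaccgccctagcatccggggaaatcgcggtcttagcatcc
RPS27L: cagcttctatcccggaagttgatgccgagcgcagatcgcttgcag
RPL10L: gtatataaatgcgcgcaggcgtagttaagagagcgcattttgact
The regions are chr3:186857270-186857314 for RPL39L, chr15:63449662-63449706 for RPS27L and chr14:47120970-47121014 for RPL10L, all on the minus strand.

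Over all members, 46 of 81 had a TOP start exactly at the start of the leading transcript, 26 of the large and 20 of the small subunit, against 3.86% of all protein-coding genes. Allowing 5 bases on either side raised the count to 55 members, against a background of 20.6%. This looser count includes runs that end before the annotated transcript begins, as in RPL19. Where present, the run had a median length of 8 bases and reached from 5 bases, as in RPL3, to 19 bases in RPL39. Lengths were counted from the matching C nearest to the start, so pyrimidines before that C were left out. Among 416 non-members at or above 100 FPKM, 8.65% had a TOP start exactly at the start. Of 64 members with a RefSeq promoter window (GRCh38.p14), 53 had a TOP start within 5 bases of at least 1 of their starts, against 28.4% of protein-coding genes that have such a window. Counting both sources, 63 members had one. The 18 that had none, of which 8 have no RefSeq window here, included RPL6, RPL8, RPL9, RPL15, RPL27, RPS4X and RPS26, and also RPL10L, RPL39L and RPS27L. A match describes these letters at an annotated start and does not show where transcripts began in HK2 cells.

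Other factors of translation also carried such starts. They were found exactly at the start in 11 of 29 initiation factor genes, among them PABPC1, EIF4B and 7 genes of the EIF3 complex. They were found in 3 of 8 elongation factor genes, EEF1A2, EEF1B2 and EEF2. The background was 3.86% of all protein-coding genes and 4.21% of other genes of at least 1 FPKM. Mitochondrial ribosomal protein genes, with 4 of 78 or 5.13%, were near that background.

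Other short motifs were searched in the 300 bases from 250 before to 50 after the start, on both strands. CCGGAAG, the core of ETS family binding, was present in 25 members, against 13.3% of all protein-coding genes and 19.3% of the other genes of at least 1 FPKM. AAGATGGC, a YY1 motif, was present in 9 members, against a background of 3.83% and 5.61% of the other genes of at least 1 FPKM. GGGCGG, the GC box of the Sp factors, was present in 47 members, or 58.0%, against a background of 57.4% and 71.5% of the other genes of at least 1 FPKM. TATAAA between 40 and 20 bases before the start, searched on the gene's strand, was found in 4 members, RPS2, RPS28, RPLP0 and RPL10L, against a background of 3.46% and 1.36% of the other genes of at least 1 FPKM. These windows had a median GC content of 59.3% in members and 66.0% in the other genes of at least 1 FPKM, so motifs of different base composition are not equally likely in both. Mitochondrial ribosomal protein genes had CCGGAAG in 31 and AAGATGGC in 22 of 78. The promoter of RPS18 is shown as the member of highest FPKM with a pair of CCGGAAG matches, in capitals, from chr6:33239602-33239866 in GRCh37, plus strand, ending 15 bases into the transcript.
RPS18 promoter: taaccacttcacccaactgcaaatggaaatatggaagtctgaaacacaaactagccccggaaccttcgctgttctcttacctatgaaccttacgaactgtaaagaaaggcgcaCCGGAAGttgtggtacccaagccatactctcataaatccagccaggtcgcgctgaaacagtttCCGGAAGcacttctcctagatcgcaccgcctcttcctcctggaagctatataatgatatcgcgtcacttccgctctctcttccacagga

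The labelled cell type was checked against markers. The renal lineage factor PAX8 was at 100 and 104 FPKM, and the keratin KRT8 of simple epithelia was at 179 and 184 FPKM. Of the other epithelial markers, KRT18 was at 68.0 and 44.2 FPKM and EPCAM at 39.9 and 41.4. CDH1, the cadherin that joins epithelial cells, was at 0.210 and 0.283 FPKM. It had peaks of H3K27me3, H3K4me3 and H3K27ac within 1 kb of a TSS in both replicates of each mark. Of 7 proximal tubule markers, only GGT1, at 64.1 and 58.1 FPKM, and SLC5A2, at 1.56 and 2.36 FPKM, reached 1 FPKM in both libraries, and LRP2 was listed at 0. The mesenchymal filament gene VIM was at 709 and 1133 FPKM. PTPRC of immune cells was listed at 0, and the podocyte gene NPHS1 reached 0.0127 FPKM in 1 library and was listed at 0 in the other. In bulk RNA, fewer cells of a type and less RNA per cell cannot be told apart. The deposited peak lists hold between 28615 and 73505 peaks on these chromosomes, with median widths between 434 and 1357 bp, so the replicates of a mark differed in number and width of peaks. These lists give no read count for individual peaks. For each replicate, the paper reports the aligned read pairs and the share of reads lying in peaks. Both were higher in replicate 1 than in replicate 2 for H3K4me3 and H3K27ac. For H3K27me3, replicate 1 had more aligned pairs, while its share of reads in peaks was slightly lower. For RNA, 1 FPKM corresponded to a mean of 5.67 reads per base in library 1 and 5.52 in library 2.

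Ribosomal protein genes were expressed at a high level. Their median was 499 FPKM in library 1 and 503 in library 2, while the median of all protein-coding genes was 3.24 and 3.36. Together they held 13.0% and 12.9% of the summed FPKM of protein-coding genes. Their leading transcripts were short, with a median of 832 bases against 2815 over genes of at least 1 FPKM, and without division by length their share was 5.02%. Of 81 members, 76 had a mean of at least 100 FPKM, against 2.5% of all protein-coding genes. Members made up 9 of the 20, 26 of the 50 and 47 of the 100 protein-coding genes of highest FPKM. The large subunit had a median of 435 and 423 FPKM and the small subunit a median of 560 and 559 FPKM. The quartiles of the 2 subunits overlapped, from 272 to 779 FPKM for the large and from 317 to 786 FPKM for the small subunit in library 1.

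**Figure D1:**
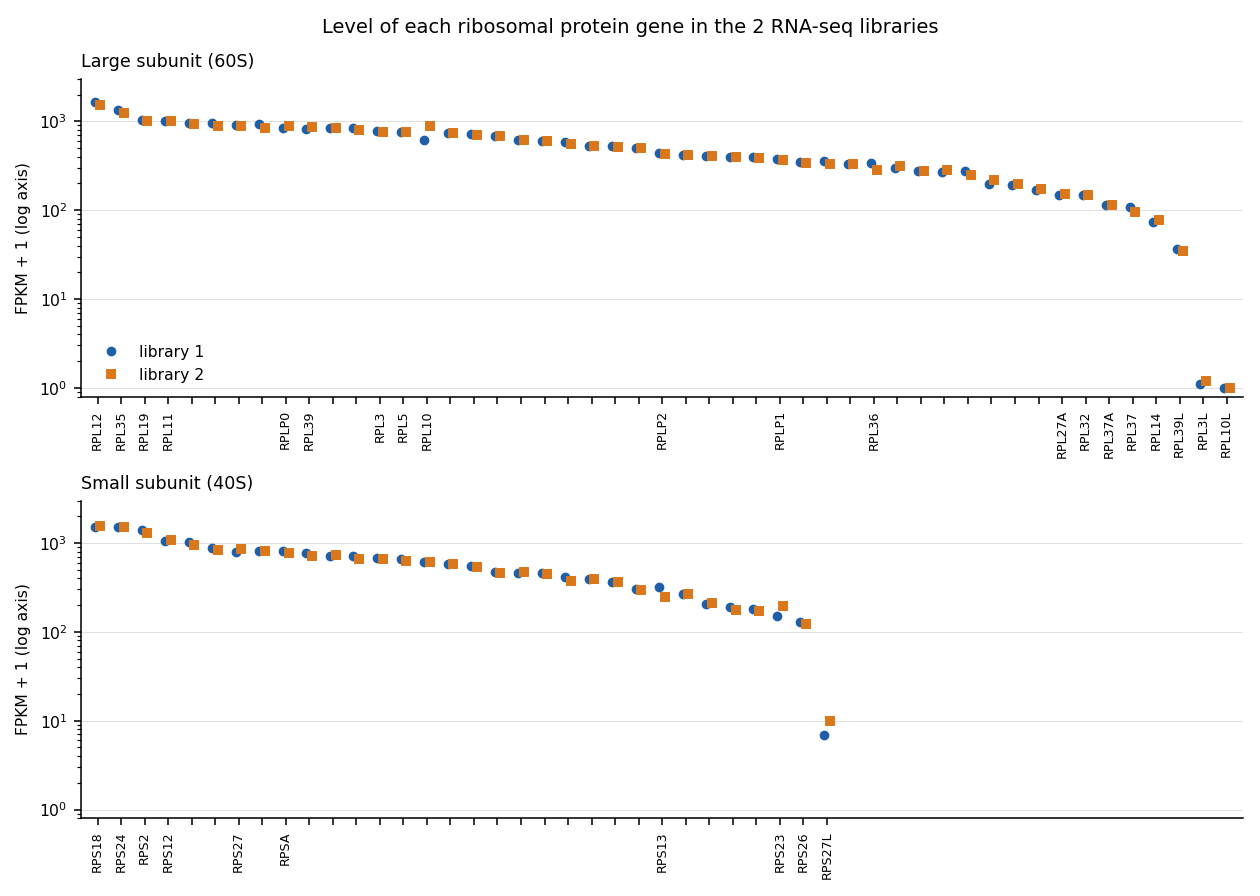
FPKM + 1 (vertical, log axis) of each of the 81 genes in RNA-seq library 1 (circles) and library 2 (squares), ordered by mean within the large and the small subunit, with names for 30 of them. Most genes lie between 100 and 1644 FPKM with both libraries close together, and RPL39L, RPS27L, RPL3L and RPL10L lie below the rest.

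The 8 genes of highest FPKM came from both subunits. RPL12, which lies at the base of the stalk that recruits translation factors, had 1644 FPKM in library 1 and 1511 in library 2. RPS18 had 1501 and 1532 FPKM, and RPS24, which takes part in processing of the 18S rRNA precursor, had 1503 and 1525 FPKM. RPS2, a protein near the mRNA entry site, had 1385 and 1305 FPKM. The means of RPS18 and RPS24, 1516 and 1514 FPKM, differed by less than the spread between libraries, whose SD was above 15 for both. RPL35, at the exit of the peptide tunnel, had 1341 and 1250 FPKM. RPS12 had 1063 and 1066 FPKM, and RPL19 had 1043 and 1006. RPL11 had 1009 and 1003 FPKM. It was below RPL19 in each library, but the ranges of the 2 genes overlapped, so their gap is not larger than the spread between libraries.

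RPL5 and RPL11 bind the 5S rRNA and, when not in a ribosome, the p53 regulator MDM2. RPL5 had 753 and 747 FPKM, so it was lower than RPL11 in both libraries. The stalk genes RPLP0, RPLP1 and RPLP2, which bind the elongation factors, had 833 and 888, 377 and 366, and 435 and 423 FPKM. RPLP1 and RPLP2 form the dimers that bind RPLP0, and RPLP0 was the highest of the 3 genes in each library. RPSA, also known as a laminin receptor, had 804 and 773 FPKM.

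At the low end stood RPL10L, RPL3L, RPL39L and RPS27L, 4 relatives of other members, and a group of genes that encode core ribosomal proteins. RPL10L was listed at 0 in both libraries, while RPL10 had 610 and 887 FPKM. RPL3L had 0.0965 and 0.193 FPKM, at a mean of 0.548 and 1.07 reads per base, while RPL3 had 779 and 755. RPL39L, at 35.1 and 33.5 FPKM, was expressed in both libraries but far below RPL39, at 810 and 871 FPKM. RPS27L, a target of p53, had 5.90 and 8.80 FPKM against 780 and 845 for RPS27. In each of the 4 pairs, both libraries gave the gene without an L the higher level. Reads shared between near-identical sequences can be assigned to either gene of such a pair.

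Among core genes, RPL14 had the lowest level, 72.6 and 76.8 FPKM, followed by RPL37 at 108 and 95.4, RPL37A at 112 and 112, and RPS26 at 129 and 123. RPL32 had 147 and 147 FPKM and RPL27A had 146 and 149, and these did not differ beyond the spread of the libraries. RPL14 and RPL12, the lowest and the highest of the 77 genes other than the 4 relatives, differed 21.1-fold in mean FPKM. The SD of log2(FPKM + 1) was 0.99 over these 77 genes and 1.83 over all 81. It was 2.13 over all protein-coding genes, many of them at or near 0, and 1.55 over those of at least 1 FPKM. Among related lists it was 0.77 for RNA polymerase I, 0.93 for mitochondrial ribosomal proteins and 1.25 for initiation factors. Ribosome biogenesis had 1.53 and elongation factors 2.55, so a narrow spread was not particular to the members.

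The level per length varied with the length of the annotated transcript to which reads were assigned. The leading transcripts of RPL37, RPL14 and RPS27L were 7686, 7072 and 6434 bases long, and those of RPL27A, RPL28, RPL13, RPL37A and RPS23 were between 3437 and 4916 bases long, while the median over members was 832 bases. The 13 members with a leading transcript of at least 2000 bases had a median of 173 FPKM and the other 67 of the 80 detected members a median of 613 FPKM. On a scale of fragments without division by length, that is FPKM times length in kb summed over transcripts (FPM), the medians were 372 and 433. Over the 80 members, Spearman's rho with transcript length was -0.46 for FPKM and 0.16 for FPM, as a description of genes that share the same libraries. In FPM, RPL14 had 278 and RPL37 had 336, not far below the median of 429, while RPS27L had 30.3 and RPL39L had 24.2. Thus RPS27L and RPL39L were low on both scales and RPL14 and RPL37 were low per length. Whether HK2 cells use the long transcripts was not tested. RPS29, with a leading transcript of 296 bases, had 206 FPKM and 64.9 FPM.

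**Figure D2:**
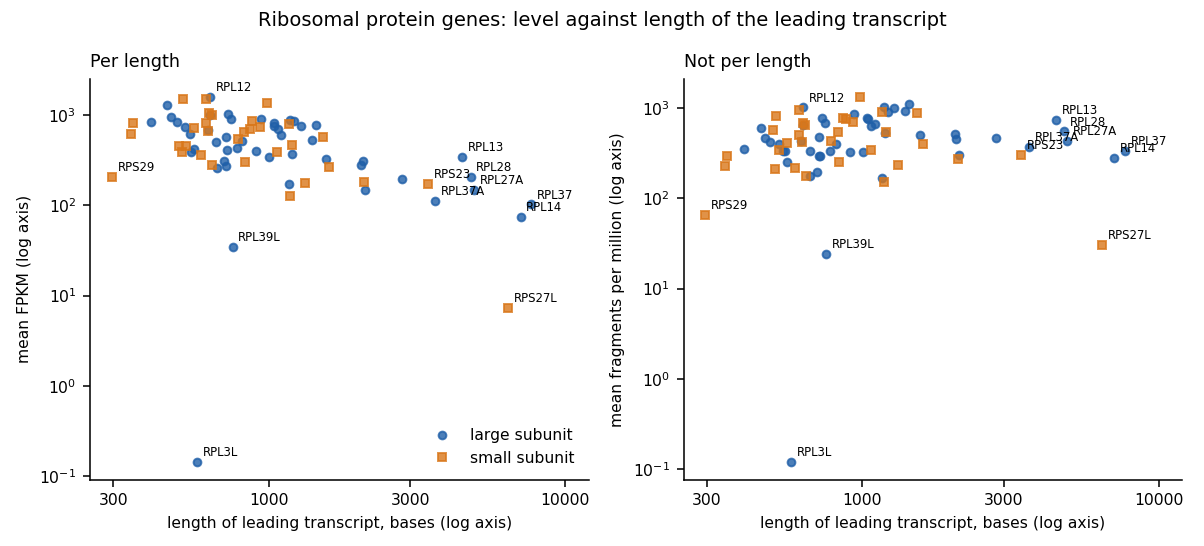
Mean level of the 80 detected ribosomal protein genes (vertical, log axis) against length of the leading transcript in bases (horizontal, log axis), as FPKM on the left and as FPM on the right, for the large (circles) and small (squares) subunit. RPL37 and RPL14 lie low in FPKM but near the other genes in FPM, while RPS27L, RPL39L and RPL3L are low on both.

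The 2 libraries gave close values for the members. No member differed over 1.5-fold in FPKM + 1 between libraries, while 1.26% of all protein-coding genes were higher and 1.07% lower in library 2 by that measure. The ratio was within 1.1-fold for 73 members, 29 were higher and 51 lower in library 2, and the median absolute log2 ratio was 0.045. For 416 other genes of at least 100 FPKM it was 0.061. The median log2 ratio of library 2 over library 1 was -0.012 for members and 0.006 for genes of at least 1 FPKM. The counts within 1.1-fold and by direction were not made for other genes. The 5 members farthest apart were RPL10, with a log2 ratio of 0.54, RPS27L with 0.51, RPS13 with -0.40, RPS23 with 0.36 and RPL36 with -0.28. RPS13 had 321 FPKM in library 1 and 243 in library 2, RPS23 had 151 and 195, and RPL36 had 340 and 279. Without division by length, 3 of the 5 were closer, with 951 and 1044 FPM for RPL10, 29.7 and 30.9 for RPS27L and 299 and 308 for RPS23. RPS13 had 202 and 154 FPM and RPL36 had 209 and 182. These values come from 1 library on each side and have no replicate check.

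Transcripts varied more than genes. The members had 773 annotated transcripts, of which 521 reached 1 FPKM in both libraries, a count not made for other genes. Protein-coding transcripts held 82.4% and 81.9% of the members' FPKM, retained-intron transcripts 4.69% and 5.60%, transcripts with no defined coding sequence 3.42% and 3.55%, and transcripts subject to nonsense-mediated decay 1.54% and 1.43%. A further 7.97% and 7.47% lay in 13 transcripts that the GRCh37 annotation used here does not hold. The leading transcript held a median of 81.0% of a member's FPKM, against 62.2% over all protein-coding genes of at least 1 FPKM. It held at least 90% in 23 members, such as RPL12 with 98.5% and RPS28 with 98.5%, and under 50% in 15. These counts were not made for other genes.

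The lowest shares were those of RPL10, RPL13, RPLP0, RPL31 and RPL15, at 21.3%, 25.6%, 33.2%, 36.1% and 36.1%. In RPL10, the transcript RPL10-202 had 18.6 FPKM in library 1 and 300 in library 2, while another transcript, ENST00000424325, had 192 and 8.02 FPKM. The assignment among RPL10 transcripts thus reversed between libraries, and the gene's own level moved from 610 to 887 FPKM. In FPM the gene moved less, from 951 to 1044. In RPLP0, ENST00000392514 had 314 and 257 FPKM and ENST00000546990 had 205 and 300, so that the order of these 2 transcripts also turned. Of 131 member transcripts with a mean of at least 50 FPKM, 9 differed over 2-fold in FPKM + 1 between libraries, among them RPL30-209 with 33.3 and 224 FPKM and the retained-intron transcript RPS18-232 with 78.7 and 406 FPKM. Transcripts of other genes were not counted in this way, so the count cannot be called particular to the members. The gene levels of RPL30, 615 and 619 FPKM, and of RPS18 stayed close.

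**Figure D3:**
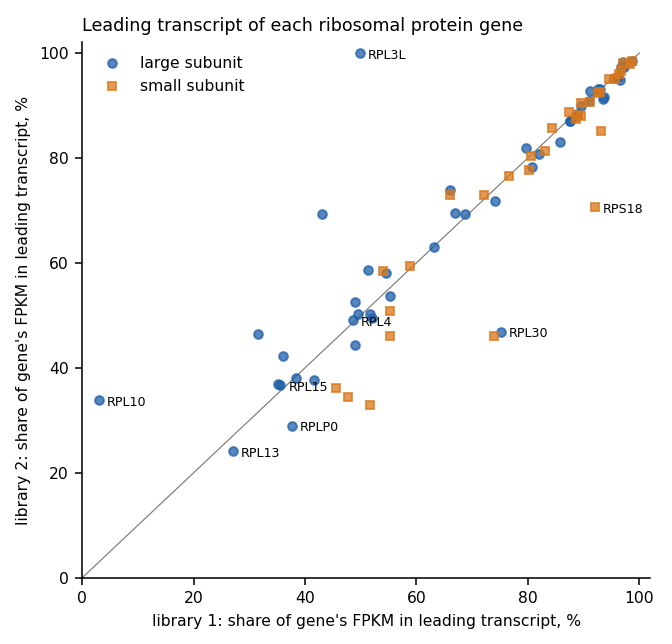
Share of each gene's FPKM in its leading transcript in library 1 (horizontal, %) and library 2 (vertical, %), for the 80 detected genes of the large (circles) and small (squares) subunit, with the line of equal shares. Most genes lie near the line, RPL10 lies far from it, and RPL3L lies far from it at a level under 1 FPKM.

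In 2 members the leading transcript was not annotated as protein coding. In RPL4, the retained-intron transcript ENST00000561775 of 1396 bases had 255 and 257 FPKM, above the protein-coding RPL4-201 of 2769 bases with 170 and 165. RPL7A-205, of 941 bases and with no defined coding sequence, had 622 and 618 FPKM, above RPL7A-202 of 891 bases with 151 and 136. Both orders were the same in the 2 libraries. They are orders per length. In FPM the order of the 2 RPL4 transcripts was the reverse in both libraries, since RPL4-201 is the longer, and that of the RPL7A transcripts was the same. RPL4 and RPL7A each host 4 small nucleolar RNAs (snoRNAs), which guide chemical changes of rRNA and are cut from introns.

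Hosting snoRNAs was common among members. In the annotation, 29 of 81 members held at least 1 snoRNA on their own strand, 60 in all, against 2.11% of all protein-coding genes. Among those with 4 each were RPL4, RPL7A, RPL13A and RPL23A, with SNORD32A, SNORD33, SNORD34 and SNORD35A in RPL13A. The median FPKM of the 29 hosts was 610 in library 1 and 619 in library 2, and that of the 51 other detected members 421 and 416. Members lay on 21 chromosomes, 12 of them on chromosome 19 and 8 on chromosome 3. The share of all protein-coding genes on these chromosomes was not counted. Another protein-coding gene started on the other strand within 1 kb upstream of 11 members, against 8.38% of all protein-coding genes. Among these were VPS52 at 199 bp from RPS18, MED22 at 135 bp from RPL7A and ARPC5L at 173 bp from RPL35. Around such starts a peak cannot be assigned to 1 of the 2 genes.

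Pseudogenes are a limit to the levels. The RNA-seq files name 951 genes as a member's name plus P and digits, for 74 of the 81 members, and 59 of these genes reached 1 FPKM in both libraries. Their summed FPKM was 933 and 976, against 45091 and 44430 for the members. The median member had pseudogenes summing to 0.121% of its own FPKM, and 7 members had pseudogenes at 10% or more. The shares were 25.1% for RPL23A, 17.1% for RPL21, 16.4% for RPL10, 13.7% for RPS26, 11.6% for RPS28, 11.4% for RPL7 and 10.0% for RPL15. RPL10P16 alone had 117 and 118 FPKM. Reads that fit a parent and its copies can be assigned to either, so the levels of these 7 genes are uncertain. A low share does not show that a parent has no shared reads. Other members also have many copies, such as RPSA with 74 and RPL12 with 50, and shared reads were not tested.

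Promoters of the members carried active marks with 2 exceptions. A peak of H3K4me3 within 1 kb of an annotated transcription start site (TSS) was present in both replicates for 79 of 81 members, against 70.3% of all protein-coding genes and 97.3% of those of at least 1 FPKM. H3K27ac was also present in both replicates for 79 members, against 55% of all protein-coding genes and 84.6% of those of at least 1 FPKM. Each replicate alone gave the same count of 79 for either mark, against 71.9% and 78% of all protein-coding genes for H3K4me3 and 67.5% and 55.1% for H3K27ac. A peak in either replicate was present for 79.6% of all protein-coding genes for H3K4me3 and 67.6% for H3K27ac. The same 79 genes had both marks, whereas 83.6% of all genes of at least 1 FPKM had both. The 2 exceptions, RPL3L and RPL10L, were the 2 members under 1 FPKM. The nearest H3K4me3 peaks to the start of RPL3L lay 1720 and 1831 bp away in replicates 1 and 2, upstream of the gene. For RPL10L they lay 59754 and 142598 bp away. RPL39L, at 35.1 and 33.5 FPKM, had peaks of both marks over its start in all 4 lists, chr3:186856288-186857861 for H3K4me3 and chr3:186856518-186857745 for H3K27ac in replicate 1. RPS27L, at 5.90 and 8.80 FPKM, also had both marks over its start in all 4 lists.

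No member had H3K27me3 within 1 kb of a TSS in both replicates, against 11.4% of all protein-coding genes and 2.92% of those of at least 1 FPKM. A peak in either replicate was found at 2 members, RPL38 and RPL39L, against 16.2% of all protein-coding genes, and each replicate had 1 of them, against 14.5% and 13%. At RPL38, the peak of replicate 2, chr17:72198580-72198986, lay 735 bp from the nearest TSS, and that of replicate 1, chr17:72198108-72198685, lay 1036 bp away, just beyond the limit, so that the replicates overlapped each other upstream of this gene. At RPL39L a peak of 302 bp in replicate 1 covered a start other than the leading one, which lay 3173 bp away, and replicate 2 had its nearest peak 7176 bp from any start.

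**Figure D4:**
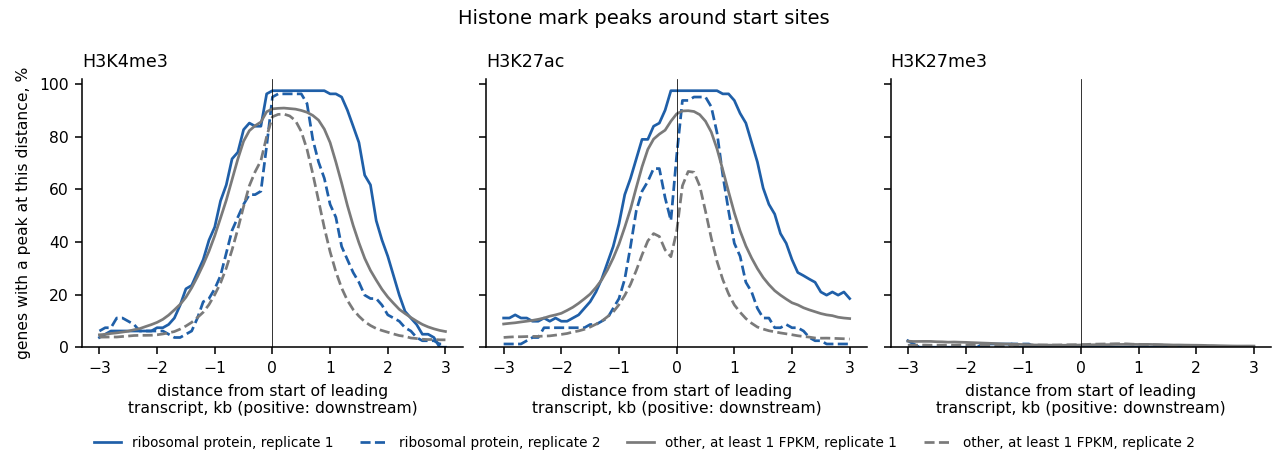
Share of genes (vertical, %) with a peak at each distance from the start of the leading transcript (horizontal, kb, in 100 bp steps), for the 81 ribosomal protein genes and for 11470 other protein-coding genes of at least 1 FPKM, in replicate 1 (solid) and replicate 2 (dashed) of each mark. At 1 kb downstream, H3K4me3 covered 96.3% and 54.3% of ribosomal protein genes and 77.8% and 36.3% of the others, and H3K27me3 stayed near 0 in all.

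The marked regions extended further downstream than upstream. Of the 79 marked members, 68 in replicate 1 and 65 in replicate 2 had more H3K4me3 bases downstream than upstream of the start within 2 kb, against 69.9% and 67.5% of other genes of at least 1 FPKM with the mark. For H3K27ac, 65 and 54 did, against 56.4% and 57% of such genes, so that a longer downstream side was also the more common form among other marked genes. The H3K4me3 medians of the members were 1798 bases downstream and 960 upstream in replicate 1 and 1110 and 586 bases in replicate 2. In all, H3K4me3 peaks covered a median of 2739 and 1743 bases within 2 kb of the start of these members, and 2360 and 1526 bases for 11155 other genes of at least 1 FPKM with the mark. The gap between the replicates was thus larger than the gap between members and other genes, and members had the larger median within each replicate. For H3K27ac the medians were 2695 and 1514 bases for members and 2148 and 1022 bases for 9688 other genes. At 1 kb downstream, H3K27ac covered 93.8% and 39.5% of members and 51.1% and 16.1% of the other genes. The narrowest H3K4me3 coverage in replicate 1 was that of RPL29, with 1418 bases, and the widest that of RPL28 and RPS12, which were covered throughout. RPL28 was covered throughout in replicate 2 too, and RPS12 had 1674 bases there. Among the 79 members, Spearman's rho of FPKM with covered bases was 0.19 for H3K4me3 and 0.21 for H3K27ac, as a description of genes that share the same lists.

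H3K27ac differed between replicates at the start itself. In replicate 1 its peaks lay over the start of all 79 marked members, and in replicate 2 over 59, against 57.4% and 27.7% of all protein-coding genes. H3K4me3 peaks lay over the start of 79 and 77 members, against 63% and 63.2%, and those missed in replicate 2 were RPS13 and RPS26. These backgrounds include genes without the mark and are not like the counts of marked members. Of all protein-coding genes, only 67.5% and 55.1% had an H3K27ac peak within 1 kb of a start. For H3K4me3, 71.9% and 78% did. The share over the start among other marked genes was not counted. For the 20 marked members with no H3K27ac peak over the start in replicate 2, among them RPS24, RPS12, RPSA and RPL3, a peak of this mark lay between 1 and 476 bp away, within 100 bp for 18 of them. The profile of replicate 2 dipped to 48.1% of members at 100 bp upstream and reached 93.8% at 100 bp downstream, and for the other genes of at least 1 FPKM it went from 34.4% to 61.4%. In replicate 2, 28 of the 79 marked members had several H3K27ac peaks within 2 kb, and in replicate 1, 5 did, against 27.7% and 6.59% of other genes of at least 1 FPKM with the mark. This H3K27ac dip was seen in replicate 2, whose peaks had the smaller median width, and its cause was not tested.

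Lists of other genes of translation had lower medians than the members. Of genes that encode ribosomal proteins or close relatives under other names, RACK1, a scaffold on the small subunit, had 182 and 193 FPKM. RPL26L1 and RPL22L1 were lowest, with 28.9 and 30.9 FPKM and with 15.6 and 13.8 FPKM. The 8 elongation factor genes had a median of 281 and 272 FPKM. EEF1A1, which brings charged tRNA to the ribosome, had 2287 and 2378 FPKM, above every member in both libraries, and EEF2, which moves the ribosome along the mRNA, had 751 and 717. EEF1D, with 121 and 153 FPKM, and EIF5A2, with 4.52 and 5.15 FPKM, were lowest. The 29 initiation factor genes had a median of 76.0 and 86.1 FPKM, from EIF4E, which binds the mRNA cap, with 7.77 and 6.08 FPKM and EIF5B with 8.19 and 9.36 FPKM up to EIF6 with 212 and 208 and PABPC1 with 221 and 241 FPKM. All 29 had H3K4me3 and H3K27ac in both replicates.

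Genes that build ribosomes had lower levels still. The 24 measured genes of ribosome biogenesis had a median of 25.4 and 27.1 FPKM, and 4 of them, all nucleolar, had at least 100 FPKM. The highest were NPM1, with 320 and 378 FPKM, and NCL, with 171 and 169, and the lowest were WDR12, with 5.27 and 5.45, and RIOK2, with 2.73 and 2.95 FPKM. The 11 genes of RNA polymerase I and its factors, which transcribe rRNA, had a median of 12.8 and 11.7 FPKM. UBTF and POLR1D were highest, with 45.8 and 44.6 FPKM and with 30.7 and 29.7, and TAF1A and POLR1B lowest, with 8.25 and 7.66 and with 7.43 and 7.74 FPKM.

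The mitochondrial ribosome, made of other proteins that are also encoded in the nucleus, gave a further comparison. Its 78 genes had a median of 25 FPKM in library 1 and 24.1 in library 2, from MRPL34 with 3.25 and 3.41 FPKM and MRPL50 with 4.58 and 4.11 to MRPL51 with 67.8 and 69.7 and MRPL12 with 77.9 and 72.7 FPKM. The log2 ratio of the cytosolic to the mitochondrial median was 4.37, with 4.32 in library 1 and 4.39 in library 2. All 78 had H3K4me3 in both replicates and 73 had H3K27ac. Of the 81 cytosolic genes, 76 had a mean of at least 100 FPKM and of the 78 mitochondrial genes none did.

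**Figure D5:**
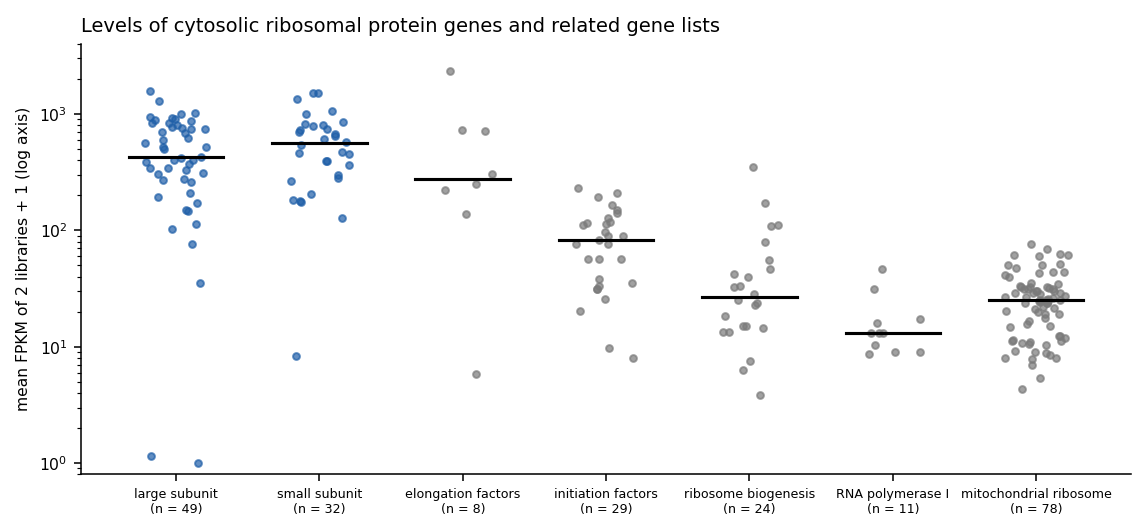
Mean FPKM + 1 of the 2 libraries (vertical, log axis) for each gene of the large and small subunit of the cytosolic ribosome and of 5 related lists, with a black line at the median of each list. Medians were 429 and 560 FPKM for the subunits, 276 for elongation factors, 81.7 for initiation factors, 25.9 for ribosome biogenesis, 12.2 for RNA polymerase I and 24.2 for the mitochondrial ribosome.

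Of the members, 19 are genes in which mutations cause Diamond-Blackfan anaemia, a failure of red cell production. All 19 had a mean of at least 100 FPKM, from RPS26 with 129 and 123 FPKM to RPS24 with 1503 and 1525, and a median of 458 and 466 FPKM, against 499 and 503 over all members. RPS19, the gene most often mutated in the disease, had 458 and 445 FPKM, and its leading transcript held 41.0% of this. All 19 had H3K4me3 and H3K27ac within 1 kb of a TSS in both replicates and none had H3K27me3 in either.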

How the data were processed

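Per the labels, the 11 samples are of HK2 cells. The 6 peak lists and 2 RNA-seq files were used, while input DNA and HiChIP were not used here. For ChIP-seq, the authors used Bowtie2 with hg19 and MACS2 in each replicate, giving lists of positions that were deposited with neither score nor depth. The ChIP-seq sample of each mark without a number is called replicate 1. For RNA-seq, the authors ran StringTie 1.3.3 with GENCODE 27 and deposited the coverage, FPKM and TPM of each transcript, whose coordinates are those of GRCh38, although the methods name hg19. They also name RNA depleted of rRNA, where the labels give mRNA.

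FPKM was summed per gene, and genes were joined by Ensembl identifier to GENCODE 44 on GRCh37, which matched 55859 of 58243 genes. TSSs came from there. Where the leading transcript was missing (5 members) or at 0, the canonical transcript gave the start. Overlaps, motifs and plots used Python 3.11.15, numpy 2.4.6, pandas 2.3.3, pysam 0.24.0 and matplotlib 3.10.9, and overlap and motif code was checked on simulated positions. Motifs were read from the GRCh37 genome and RefSeq windows.

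Named genes were the 8 highest and 8 lowest members, those with unusual marks, library ratios or transcripts, paralog pairs, stalk, RPL5, RPL11, RPSA, and, of each list, the 2 highest and 2 lowest where reported. Other members given as examples were picked with their values in view. The members and lists were chosen with earlier results of these data known. BOP1 and PECAM1, both listed, gave no value here, and some listed genes, 1 start sequence and 1 larger gene set are not reported here. Alternatives covered unit, transcripts, low FPKM, pseudocount, fold, scaling, gene set, window, start, peak width and replicates.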

Additional observations from a re-analysis of the deposited data

How the results depend on the processing

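Of 72 alternative values for 10 results, 48 moved by less than the spread between replicates or, for counts, stayed within 1.5 times. The log2 ratio to the mitochondrial ribosome, the only one of these results that can change sign, stayed positive. The median member FPKM of 501 became 1388 in TPM, which is on another scale, 390 with protein-coding transcripts only, which leaves out the leading transcripts of the 5 genes that the annotation lacks, 520 among genes of at least 1 FPKM, 522 without RPL3L, RPL10L and RPL39L, and 428 as FPKM times length (FPM), a choice made after seeing the data. The share of protein-coding FPKM of 13.0% became 5.02% in FPM, which does not divide by length. The SD of log2 FPKM of 1.83 became 1.99 in TPM, 2.26 with protein-coding transcripts only, 1.25 among genes of at least 1 FPKM, 2.18 with a pseudocount of 0.1, 1.19 without RPL3L, RPL10L and RPL39L and 1.67 in FPM. The log2 ratio to the mitochondrial ribosome of 4.37 became 4.12 with protein-coding transcripts only, 4.42 among genes of at least 1 FPKM and 3.88 in FPM. With protein-coding transcripts only, 2 members and not 0 differed over 1.5-fold between libraries. The leading share of 81.0% was 80.7% among genes of at least 1 FPKM. With a window of 2 kb 1 member, RPL38, had H3K27me3 in both replicates, and 2 had it in either replicate within 1 kb. Leaving out 1 replicate at a time gave a median of 499 to 503 FPKM, a share of 12.9% to 13.0%, an SD of 1.82 to 1.85, a log2 ratio of 4.32 to 4.39, a leading share of 80.6% to 80.7%, 79 members with H3K4me3, 79 with H3K27ac and 1 with H3K27me3, and 1687 to 2718 bases covered by H3K4me3. No paired analysis was possible because the study has 1 condition and no comparison between groups was tested. Beyond what each alternative changes by construction, the cause was not tested. With 2 libraries or lists per assay the spread is poorly known, and the peak lists hold no read counts for individual peaks.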
